A study of Mus musculus with 8 samples.

Results

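V(D)J recombination assembles the antigen receptor genes of lymphocytes by cutting between gene segments and rejoining them. RAG1 and RAG2 form the recombinase that cuts the DNA, and the classical end-joining proteins repair the breaks: the Ku heterodimer (encoded by *Xrcc5* and *Xrcc6*) binds the ends, the kinase DNA-PKcs (*Prkdc*) and the nuclease Artemis (*Dclre1c*) open the hairpin ends, terminal transferase (TdT, *Dntt*) adds nucleotides without a template, and ligase IV (*Lig4*) with XRCC4 (*Xrcc4*) and XLF (*Nhej1*) seals the junction. In the bone marrow, TdT is known mainly from pro-B cells, where the heavy chain gene is assembled, and RAG is used again in small pre-B cells for the light chain genes. These 10 genes, listed by name for their role in the pathway, are described here among 26118 genes with a name in the RNA-seq libraries of pre-B cells, and at the accessible regions of LSK cells (Lin-, Sca-1+, cKit+), the compartment that holds the hematopoietic stem and multipotent progenitor cells.

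The study compared C57BL/6 mice that lack exon 16 of *Dido1*, the exon that encodes the C terminus of the chromatin reader Dido3, in blood cells with littermate controls. *Dido1*∆E16 mice were *Dido1* flE16/∆E16;R26R-EYFP;iCre Vav1, with 1 floxed and 1 deleted allele, and the controls, called WT, were *Dido1* flE16/+;R26R-EYFP;iCre Vav1 littermates, so that both groups carried a floxed allele, the EYFP reporter and a Cre driven by the *Vav1* promoter, which is active in hematopoietic cells. All mice were 6 to 10 weeks old. RNA-seq was made from sorted B220+ IgM- cells, in a gate with a further B-lineage marker but without CD43 that can also hold pro-B cells, with 2 libraries per genotype that were each prepared from pooled mice, and ATAC-seq, which marks accessible DNA by insertion of the Tn5 transposase, from sorted LSK cells with 2 libraries of each genotype. The RNA-seq libraries held 1581 and 1121 Mb (WT) and 1635 and 1174 Mb (*Dido1*∆E16) of coverage over the annotated transcripts, replicate 1 first, as in all values below. The numbers of reads behind single genes are unknown, and exon coverage is given where it bears on a value.

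The targeted exon was checked first. Read coverage of *Dido1* exon 16 (chr2:180657963-180662583, GRCm38, the 3′ terminal exon of the transcript uc008ojq.2) was 15.3 and 10.2 in the WT libraries, which was 48.5% and 41.4% of the coverage of exons 2 to 15. It was 0.192 and 0.039 in the *Dido1*∆E16 libraries, or 0.88% and 0.191% of the same exons. The coverage of the exon matched the genotype label of all 4 libraries. B-lineage genes were abundant throughout, with *Cd79a*, a signalling chain of the B cell receptor, at 3648 and 4476 TPM (transcript abundance scaled by length and library size) in WT and 3685 and 4070 TPM in *Dido1*∆E16.

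The libraries also differed in ways that the genotype does not name. The 10 genes of the cycling list summed to 1698 and 214 TPM in WT and 632 and 828 TPM in *Dido1*∆E16, so that WT replicate 2 was lowest and WT replicate 1 highest. Its most abundant gene, *Top2a*, which untangles replicated DNA, stood at 503, 45.7, 189 and 255 TPM in the same order. The 9 neutrophil and monocyte genes summed to 174, 1533, 749.9 and 6539 TPM, with *S100a9* as the most abundant at 72.8, 699, 353 and 2612 TPM. The 6 erythroid genes with a value, led by the globin gene *Hba-a2* at 244, 738, 548 and 7018 TPM, summed to 301, 922, 677 and 8641 TPM (*Car1* was at 0 in every library). *Dido1*∆E16 replicate 2 was highest in both lists. In bulk RNA, fewer cells of a type and less RNA per cell cannot be told apart, and the part of these differences in any result below was not tested.

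All 10 genes passed the filter of a mean of at least 1 TPM, and none was called different between genotypes by limma at the threshold used (adjusted p under 0.05 and a log2 fold change past 0.6 in either direction). Of the 11855 genes tested, *Dido1*∆E16 was called higher at 3 (0.0253%) and lower at 3 (0.0253%), so that a call was rare for any gene, and 1384 had an unadjusted p under 0.05. For 8 of the 10 genes the log2 fold change was smaller than 0.5 in either direction. Both *Dido1*∆E16 libraries lay above both WT libraries for 2 genes (*Dntt* and *Xrcc4*), a pattern found in 27.2% of all genes tested, and below them for 1 gene (*Nhej1*), a pattern found in 15.5%. The median log2 fold change was 0.01 over the 10 genes and 0.07 over all genes.

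**Figure D1:**
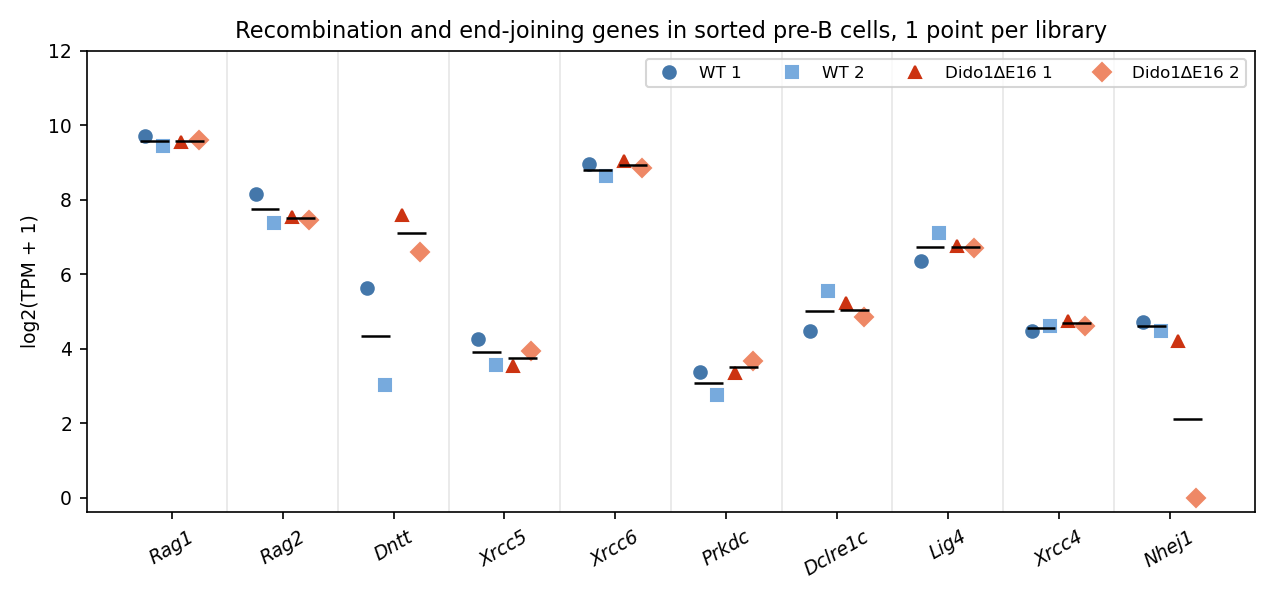
Levels of the 10 genes in the pre-B libraries, as log2(TPM + 1) on the vertical axis, with 1 point per library and a bar at the mean of each genotype. *Rag1* and *Xrcc6* are the most abundant in every library, the *Dntt* points of the genotypes are separated, and *Nhej1* is at 0 in *Dido1*∆E16 replicate 2.

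The recombinase genes were transcribed at a high level in both genotypes. *Rag1* (chr2:101638252-101649532), the subunit that cuts the DNA, measured 831 and 696 TPM in WT, and 754 and 779 TPM in *Dido1*∆E16. Both *Dido1*∆E16 values lay between the WT values, and *Rag1* stood between percentiles 98.6 and 99.0 of the genes tested in every library. Its log2 fold change was 0.01 (SE 0.14, limma adjusted p = 0.981, n = 2 libraries per genotype), and the sign turned under another scaling of the libraries.

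*Rag2*, which encodes the regulatory subunit of the recombinase and lies beside *Rag1* on the opposite strand (chr2:101624748-101632528), measured 282 and 165 TPM in WT, with 183 and 176 TPM in *Dido1*∆E16. WT replicate 1 was the highest library and the other 3 were close together. The log2 fold change was -0.27 (SE 0.29, limma adjusted p = 0.762). The level of *Rag2* depended on which transcripts were counted. From 79.8% to 92.7% of it was held by uc033hov.1, a single-exon entry of 1584 bases (chr2:101629347-101630930) that begins with a start codon and ends at its first stop codon in frame, and for which the deposited files give no gene symbol. By the transcripts with a symbol alone, *Rag2* would read 21.7 and 25.9 TPM in WT and 36.9 and 12.9 TPM in *Dido1*∆E16, with a log2 fold change of -0.11 (SE 0.56, limma adjusted p = 0.961). *Rag1* exceeded *Rag2* by 2.94 and 4.22 times in the WT libraries and by 4.13 and 4.43 times in the *Dido1*∆E16 libraries, as ratios of TPM within a library, and the genotypes overlapped.

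*Dntt* was the gene with the largest positive difference of the 10. Its protein adds the N nucleotides found at heavy chain junctions. The gene (chr19:41029275-41059525) stood at 48.7 and 7.18 TPM in WT but at 191 and 96.0 TPM in *Dido1*∆E16. Both *Dido1*∆E16 libraries were above both WT libraries, but the WT libraries differed from each other by 6.78 times, and the lower *Dido1*∆E16 library exceeded the higher WT library by 1.97 times. The mean was 27.9 ± 29.3 TPM (SD, n = 2) in WT and 143 ± 67.2 TPM (SD, n = 2) in *Dido1*∆E16. The log2 fold change of 2.76 (SE 0.97) had an unadjusted limma p of 0.0441 and an adjusted p of 0.409, so that it did not pass the threshold. It was 1.46 without WT replicate 2, the library with the lowest sum of the cycling list, and 4.06 without WT replicate 1. *Dntt* was the sixth of the 10 genes by mean level in WT and the fourth in *Dido1*∆E16.

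The reads of *Dntt* spread over its 12 exons, but exon 11 was covered less than its neighbours. This exon of 60 bases is left out of the other annotated *Dntt* transcript (uc008hlp.1), to which StringTie gave no reads in any library. Its coverage was 3.8 and 0.983 in WT and 18.9 and 6.68 in *Dido1*∆E16. That was 11.9% and 39.5% of the coverage of exons 10 and 12 in WT, where WT replicate 2 had a coverage of only 2.49 over those exons, and 19.6% and 18.8% in *Dido1*∆E16. In every library the exon was the least covered of the 12. The sequence of the exon (chr19:41058567-41058626, plus strand, GRCm38) is shown because it is the only difference between both annotated *Dntt* transcripts.
Dntt exon 11: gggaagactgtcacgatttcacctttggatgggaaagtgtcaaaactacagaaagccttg

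Genes of pro-B and large pre-B cells had their higher values in the same libraries as *Dntt*. Of the 8 genes of that list, 7 were tested, 6 had both *Dido1*∆E16 libraries above both WT libraries (27.2% of all genes) and none was called by limma (smallest adjusted p = 0.153), with a median log2 fold change of 2.37 against 0.07 over all genes. The most abundant was *Vpreb1*, which encodes a part of the surrogate light chain of the pre-B cell receptor, at 108 and 40.9 TPM in WT and 1222 and 738 TPM in *Dido1*∆E16. *Igll1*, the other part of the surrogate light chain, was at 112, 34.4, 424 and 252 TPM in the same order. The transcription factor gene *Erg* was at 13.4, 7.06, 114 and 88.8 TPM, and the stem cell factor receptor gene *Kit* at 1.63, 0.599, 9.74 and 9.06 TPM. *Il7r*, the receptor of the growth factor of these cells, overlapped between genotypes at 442, 313, 468 and 392 TPM. The list summed to 751, 426, 2676 and 1696 TPM, and no gene of it was at 0 in every library. For *Vpreb1*, *Igll1*, *Erg*, *Kit* and *Il7r* WT replicate 2 was the lowest library, as for *Dntt*. How far the *Dntt* levels followed the share of such cells in the sort was not tested.

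**Figure D2:**
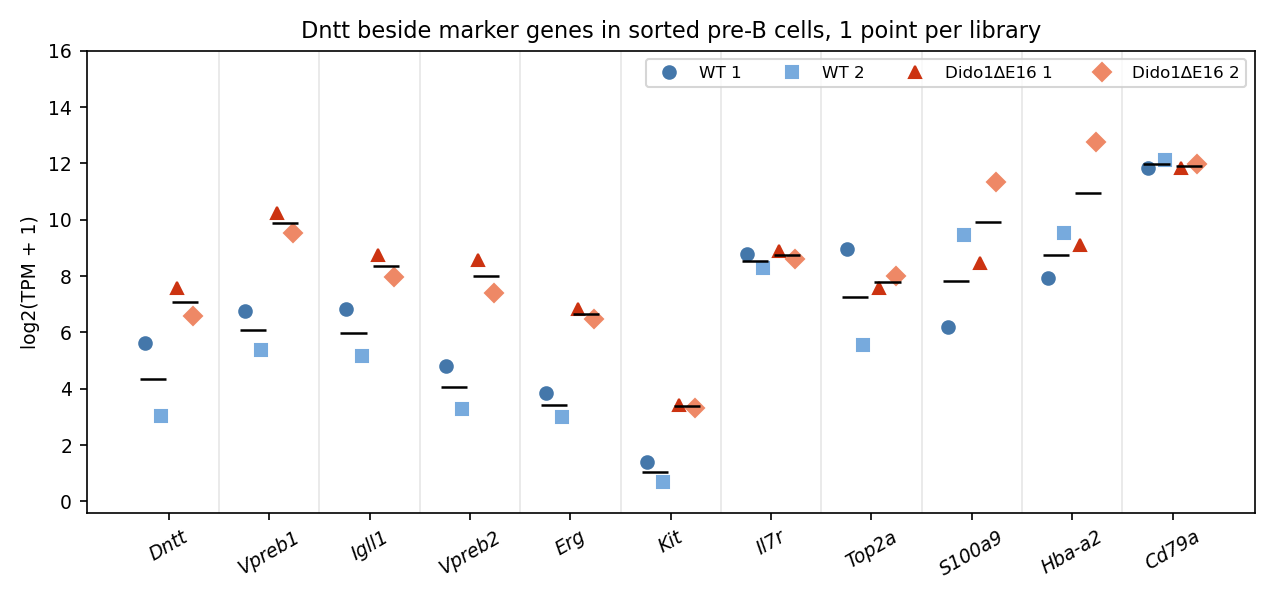
*Dntt* beside marker genes in the pre-B libraries, as log2(TPM + 1), with 1 point per library and a bar at the mean of each genotype. *Vpreb1*, *Igll1*, *Vpreb2*, *Erg* and *Kit* have both *Dido1*∆E16 libraries above both WT libraries as *Dntt* has, *Top2a* is lowest in WT replicate 2, and *S100a9* and *Hba-a2* are highest in *Dido1*∆E16 replicate 2.

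Further marker lists were read for the other cells that the sort could hold. The 6 small pre-B genes summed to 3209.6 and 5125 TPM in WT and 3874 and 3447 TPM in *Dido1*∆E16, with the growth-limiting gene *Btg1* as the most abundant at 772, 1433, 1106 and 871 TPM and a median log2 fold change of -0.16. The 8 B-lineage genes summed to 15113, 17782, 17472 and 17714 TPM, led by *Vpreb3* at 4522, 5394, 5825 and 5716 TPM. The 9 mature B genes summed to 4946, 4935, 5608 and 6414 TPM, led by the class II chaperone gene *Cd74* at 2687, 2665, 3724 and 4389 TPM, and had 2 genes above (27.2% of all genes) and 5 below (15.5%) when the genotypes did not overlap. The 6 plasma cell genes summed to 929.8, 1127, 1241 and 1214 TPM, led by *Mzb1* at 685, 847, 1017 and 989 TPM, and *Tnfrsf17* was at 0 throughout. *Sdc1* went the other way, with both *Dido1*∆E16 libraries below both WT libraries (log2 fold change -0.87, SE 0.16, limma adjusted p = 0.22). Of the 4 plasma cell genes tested, 1 was above (*Mzb1*) and 1 below (*Sdc1*), with a median log2 fold change of -0.13. The 10 T and NK cell genes summed to 6.92, 5.46, 11.9 and 26.8 TPM. *Klrb1c* was the most abundant of them over the 4 libraries, at 6.92, 3.3, 7.22 and 7.37 TPM. *Nkg7* was higher than *Klrb1c* in *Dido1*∆E16 replicate 2, at 16.3 TPM, and at 0 in every other library. The CD3 chain genes *Cd3d* and *Cd247* were at 0, 1.25, 0.967 and 2.36 TPM and at 0, 0.908, 3.7 and 0.805 TPM. *Cd3e*, *Cd3g*, *Cd4*, *Cd8a*, *Ncr1* and *Gzma* were at 0 in every library. The 4 plasmacytoid dendritic cell genes summed to 73.0, 114, 98.5 and 118 TPM, nearly all from *Cox6a2* at 71.1, 112, 96.9 and 112 TPM. None of the genes of these lists was called.

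The genes of the end-binding proteins differed widely in level but little between genotypes. *Xrcc6* (chr15:82015519-82040084), the smaller Ku subunit, was at 497 and 399.6 TPM in WT and 521 and 457 TPM in *Dido1*∆E16, with overlapping genotypes and a log2 fold change of 0.13 (SE 0.17, limma adjusted p = 0.804). *Xrcc5* (chr1:72307421-72394953), the larger Ku subunit, was at 18.0 and 10.8 TPM in WT and 10.6 and 14.3 TPM in *Dido1*∆E16, also overlapping, with a log2 fold change of -0.17 (SE 0.33, limma adjusted p = 0.884). Although the proteins form a heterodimer, the *Xrcc6* level exceeded the *Xrcc5* level by 27.6 and 36.9 times in WT and by 49.1 and 32.0 times in *Dido1*∆E16. The coverage of *Xrcc6* was not even along the gene. Exon 2 had a coverage of 33.9, 21.9, 41.4 and 23.8, which was 3.68%, 3.82%, 4.46% and 3.66% of the coverage of exon 12 in the same library, so that the low coverage of the 5′ end was found in all 4 libraries. *Prkdc* (chr16:15637866-15842239), the kinase recruited by Ku, had the lowest level of the 10 genes in WT, at 9.37 and 5.81 TPM, against 9.16 and 11.7 TPM in *Dido1*∆E16. Its log2 fold change was 0.43 (SE 0.33, limma adjusted p = 0.678). WT replicate 2 was the lowest library, and the value was 0.13 without it and 0.74 without WT replicate 1.

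*Dclre1c* (chr2:3424131-3461116) encodes Artemis, the nuclease that opens the hairpins left by RAG. It was at 21.2 and 46.1 TPM in WT, against 36.5 and 27.7 TPM in *Dido1*∆E16, so that both *Dido1*∆E16 libraries lay between the WT libraries. The log2 fold change was 0.02 (SE 0.42, limma adjusted p = 0.992), and another scaling of the libraries turned its sign. The annotated transcripts took unequal shares of this sum. uc008idz.2 was at 0 TPM in WT replicate 1 and at 34.1 TPM in WT replicate 2, against 28.5 and 20.8 TPM in *Dido1*∆E16, while uc008iea.3 was at 17.8, 8.64, 4.17 and 5.06 TPM. Neither had a symbol in the deposited files. The only transcript above 0 that had one, uc008idy.2, was at 3.43, 3.33, 3.82 and 1.89 TPM. None of the 3 transcripts was called by limma (adjusted p from 0.565 to 0.895), and the log2 fold change was 2.09 for uc008idz.2 (SE 1.94) but -1.27 for uc008iea.3 (SE 0.46).

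The ligation genes gave no call either. *Lig4* (chr8:9970020-9976323), the ligase, was at 81.1 and 137 TPM in WT, against 108 and 103 TPM in *Dido1*∆E16. Both *Dido1*∆E16 libraries lay between the WT libraries, and the log2 fold change was -0.003 (SE 0.28, limma adjusted p = 0.998). *Xrcc4* (chr13:89848914-90089608), the scaffold that binds ligase IV, was at 21.4 and 23.2 TPM in WT and 25.9 and 23.6 TPM in *Dido1*∆E16. Its genotypes did not overlap, but the log2 fold change was only 0.14 (SE 0.17, limma adjusted p = 0.784). *Lig4* exceeded *Xrcc4* by 3.79 and 5.93 times in WT and by 4.16 and 4.37 times in *Dido1*∆E16.

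*Nhej1* (chr1:74967346-75046639), which encodes the ligation cofactor XLF, was listed at 25.4 and 21.4 TPM in WT, against 17.6 and 0 TPM in *Dido1*∆E16. Every one of its 5 exons was at 0 in *Dido1*∆E16 replicate 2. In that library StringTie listed an unannotated single-exon transcript without a strand over its last exon, at 12.96 TPM (chr1:74967364-74967769), which was listed in no other library. The log2 fold change of -2.50 (SE 1.47, limma adjusted p = 0.617) rested on this library, with -0.39 without it and -4.60 without *Dido1*∆E16 replicate 1. A value of 0 in these files can be an estimate that failed, so it is not read as absence of the transcript.

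**Figure D3:**
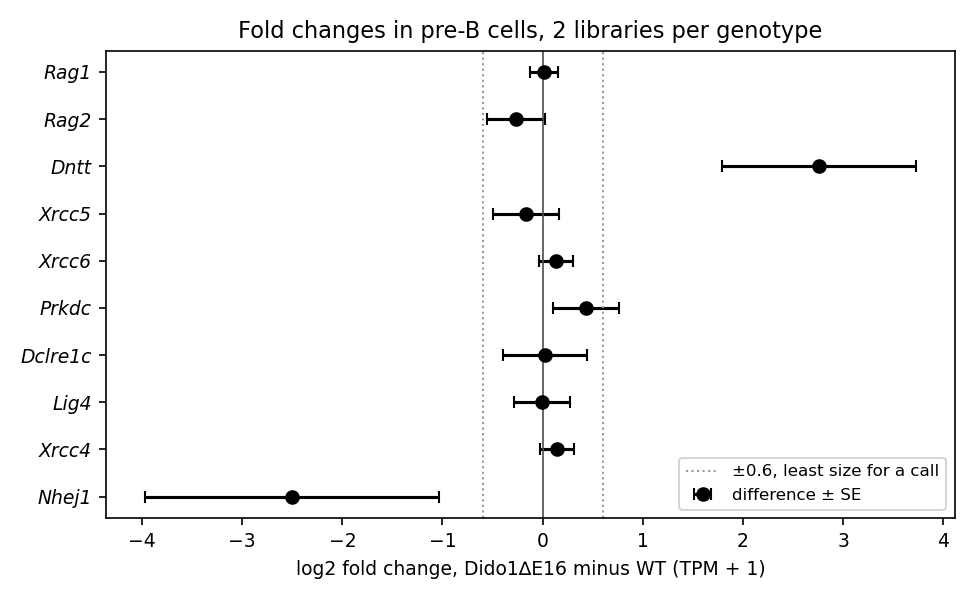
Log2 fold changes of the 10 genes between genotypes, *Dido1*∆E16 minus WT on the log2(TPM + 1) scale, with 1 SE on each side from limma. *Dntt* at 2.76 and *Nhej1* at -2.50 have the largest values and the largest errors, 0.97 and 1.47, and the other 8 lie within the dotted lines at 0.6 in either direction.

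By mean level in WT the order was *Rag1* (763 ± 95.7 TPM), *Xrcc6* (448 ± 69.1), *Rag2* (224 ± 83.0), *Lig4* (109 ± 39.8), *Dclre1c* (33.7 ± 17.6), *Dntt*, *Nhej1*, *Xrcc4* (22.3 ± 1.25), *Xrcc5* (14.4 ± 5.1) and *Prkdc* (7.59 ± 2.52), each mean with its SD over 2 libraries. The first 3 genes kept their places in *Dido1*∆E16, at 767 ± 17.6, 489 ± 45.1 and 179 ± 4.8 TPM. *Rag1*, *Xrcc6* and *Rag2* did not overlap one another in the WT libraries, whereas the values of *Dclre1c*, *Dntt*, *Nhej1* and *Xrcc4* overlapped. TPM are scaled by transcript length, but the order rests on the transcripts without a deposited symbol, which were added after the data were seen. By deposited symbols alone *Rag2*, at 21.7 and 25.9 TPM in WT, would stand below *Lig4*, and *Dclre1c*, at 3.43 and 3.33 TPM, would come last.

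Of 48 further genes of the pathway in 6 lists, 47 were tested and none was called in either direction by limma, with 6 above (27.2% of all genes) and 6 below (15.5%) when the libraries of the genotypes did not overlap. The 11 cofactors of V(D)J recombination and end joining summed to 1183 and 1111 TPM in WT and 951 and 859.7 TPM in *Dido1*∆E16. The most abundant was *Polm*, a polymerase related to TdT that fills gaps at the joining ends, at 444 and 541 TPM in WT and 344 and 303 TPM in *Dido1*∆E16 (log2 fold change -0.60, SE 0.16, limma adjusted p = 0.32). *Poll*, another gap-filling polymerase of the same family, was at 7.83 and 8.0 TPM in WT and 14.2 and 14.0 TPM in *Dido1*∆E16 (0.76, SE 0.21, limma adjusted p = 0.329). *Paxx*, which stabilises the repair complex, was at 50.3, 117, 65.9 and 43.0 TPM. The genotypes did not overlap for *Polm* and *Poll*, in opposite directions. *Polm* exceeded *Dntt* by 9.13 and 75.4 times in the WT libraries and by 1.8 and 3.16 times in the *Dido1*∆E16 libraries.

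The break signalling genes numbered 11, with a median log2 fold change of 0.23. Their largest differences were those of *Rnf168* (0.47, SE 0.46), a ubiquitin ligase at breaks, *Atm* (0.43, SE 0.31), the kinase that senses them, and *Rif1* (0.34, SE 0.39), which protects the ends. For all 3 the libraries overlapped and WT replicate 2 was lowest, as it was for the histone gene *H2afx* at 976, 183, 348 and 416 TPM. The 6 genes of alternative end joining had a median of 0.19, with *Parp1*, which binds breaks, at 316, 267, 358 and 378 TPM (0.34, SE 0.14, limma adjusted p = 0.473), the polymerase gene *Polq* at 0.30 (SE 0.63) and the ligase gene *Lig3* at 0.24 (SE 0.18). The 9 genes of homologous recombination had a median of -0.05, with *Xrcc3* at -0.62 (SE 0.44) and *Brca1* at 0.20 (SE 0.60).

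Among 8 transcription factors known to act on the *Rag* genes, 2 had both *Dido1*∆E16 libraries above (27.2% of all genes) and 4 had both below the WT libraries (15.5% of all genes), with a median log2 fold change of -0.10. *Bcl11a* was at 49.0, 83.4, 93.4 and 84.0 TPM (0.46, SE 0.29), *Foxp1* at 373, 461, 323 and 314 TPM (-0.38, SE 0.15) and the E2A gene *Tcf3* at 1141, 912, 1254 and 1208 TPM (0.27, SE 0.16), with limma adjusted p from 0.459 to 0.639. None of the 3 overlapped between genotypes, *Foxp1* being lower and the others higher in *Dido1*∆E16, and each difference was under 0.6. Next to the *Rag* genes, *Traf6* was at 109, 132, 111 and 106 TPM, the antisense neighbour *B230118H07Rik* at 0, 22.9, 13.6 and 8.75 TPM, and *Prr5l* was above 0 in 1 library at 1.94 TPM.

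In LSK cells, which have not entered the B lineage, the regions at the same genes were compared by the accessible regions that MACS2 called in each library. The LSK libraries held 10249256 and 52050898 tags in WT and 22533077 and 44633938 tags in *Dido1*∆E16, and MACS2 called 27352 and 57739 peaks in the WT samples but 13208 and 16329 in those of *Dido1*∆E16. The number of peaks thus did not follow depth across genotypes. Peaks at the promoters of the stem and progenitor cell genes *Kit*, *Cd34*, *Flt3* and *Meis1* were found in all 4 libraries, at that of *Gata2* in WT replicate 1 alone, and at those of *Ly6a* and *Hoxa9* in none.

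The 10 genes had 10 and 19 assigned peaks in the WT libraries and 6 in each *Dido1*∆E16 library. An exact two-sided permutation test over the 4 libraries gave p = 0.33, which is the smallest that 2 against 2 can give. *Dntt* was the 1 gene of the 10 with fewer peaks in both *Dido1*∆E16 than in both WT libraries, a pattern that 35.6% of the 17769 genes with a peak showed. It was also the 1 gene with peaks in both WT libraries and in neither *Dido1*∆E16 library, against 14.6% of all genes, and none of the 10 had more peaks in both *Dido1*∆E16 libraries, against 0.191%. When each library was limited to its 13208 best-scoring peaks, the 10 genes had 6 and 5 peaks in WT and 6 and 6 in *Dido1*∆E16. None then had fewer in both *Dido1*∆E16 libraries (7.16% of all genes), and *Xrcc6* had more (6.57% of all genes). The count for *Xrcc6* rests on the assignment of peaks, since the region at its start was also among the best-scoring peaks of WT replicate 2 but was assigned there to the neighbour *Desi1*, and with it WT replicate 2 and *Dido1*∆E16 replicate 2 would have 1 peak each.

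**Figure D4:**
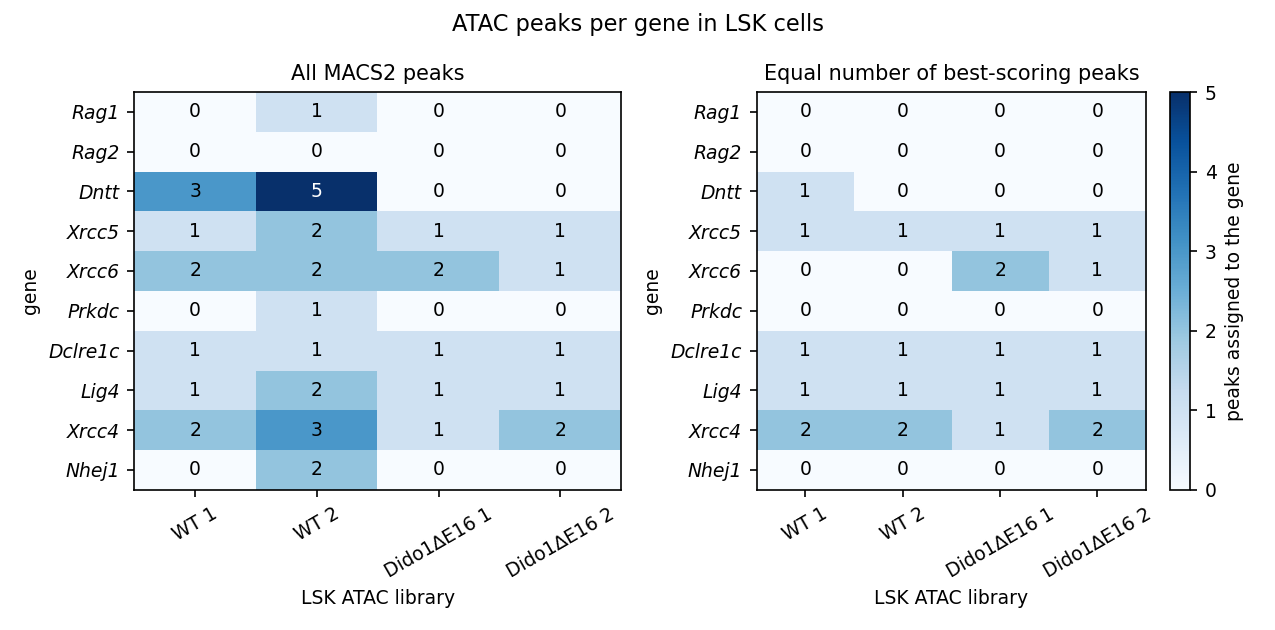
Number of MACS2 peaks assigned to each gene (rows) in each LSK library (columns), for all peaks on the left and for the 13208 best-scoring peaks of each library on the right. *Dntt* has 3 and 5 peaks in the WT libraries and 0 in both *Dido1*∆E16 libraries on the left, and 1 peak in WT replicate 1 on the right.

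Promoters of end-joining genes were accessible in LSK cells of both genotypes. *Xrcc5*, *Dclre1c*, *Lig4* and *Xrcc4* had an assigned promoter peak in every library. The *Xrcc4* promoter (chr13:90089041-90090169) ranked highest, at percentiles 98.6 and 99.5 of the scores in WT and 97.3 and 98.4 in *Dido1*∆E16. The *Lig4* promoter (chr8:9976074-9976687) was at 96.5, 97.4, 83.3 and 88.5 in the 4 libraries, that of *Dclre1c* (chr2:3423590-3424629) at 95.7, 97.2, 83.3 and 89.9, and that of *Xrcc5* (chr1:72306932-72307868) at 81.0, 88.8, 75.1 and 80.3. For all 4 genes both *Dido1*∆E16 ranks were below both WT ranks (exact permutation p = 0.33 for each), as they were for 61.2% of the 6026 genes with a promoter peak in every library. The lists that were ranked are longer in WT, and the mean rank was 92.9, 95.7, 84.8 and 89.3. Among the best-scoring peaks only, the means were 85.4, 81.3, 84.8 and 86.8, so that the genotypes overlapped, and 2 genes (*Dclre1c* and *Lig4*) had both *Dido1*∆E16 ranks below both WT ranks, against 16.7% of 4635 genes.

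*Prkdc* shares its promoter region with *Mcm4*, to which the peak (chr16:15636764-15638153) was assigned, and this region was accessible in all 4 libraries at ranks of 98.5, 99.2, 96.0 and 93.0. A region at the start of *Xrcc6* (chr15:82016053-82016908), assigned to *Xrcc6* or to its neighbour *Desi1* depending on the library, had a peak in all 4 libraries as well, with scores of 33, 137, 32 and 33. *Nhej1* had 2 peaks in introns in WT replicate 2 and no other peak. An intron of *Xrcc4* (chr13:89888868-89889500) had a peak in both WT libraries, with scores of 69 and 182, and in *Dido1*∆E16 replicate 2, with a score of 24. An intron of *Xrcc6* (chr15:82027692-82028143) had one in both WT libraries, with scores of 18 and 71, and in *Dido1*∆E16 replicate 1, with a score of 21.

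*Rag1* and *Rag2* had few peaks. No MACS2 peak was assigned to *Rag2* (HOMER gave 1, in WT replicate 2), but a region inside the gene (chr2:101628570-101629256) had a peak in all 4 libraries, with scores of 72, 239, 49 and 66, which was assigned to the promoter of the antisense gene *B230118H07Rik*. *Rag1* had 1 peak, at its promoter (chr2:101649462-101649760), in WT replicate 2 with a score of 26, at percentile 19.8 of that library, which is the most deeply sequenced. The RefSeq promoter of *Rag1* (chr2:101649483-101649782, minus strand, GRCm38.p6), which this peak overlaps, is shown 5′ to 3′ because *Rag1* is among the most transcribed genes in the pre-B libraries while its promoter was called in 1 of 4 LSK libraries. Capitals mark matches, on either strand, to CAGGTG (an E-box bound by E2A), TGTGGT (Runx), GGAAGT (Ets), TGGGAA (Ikaros) and GTAAACA (Foxo).
Rag1 promoter: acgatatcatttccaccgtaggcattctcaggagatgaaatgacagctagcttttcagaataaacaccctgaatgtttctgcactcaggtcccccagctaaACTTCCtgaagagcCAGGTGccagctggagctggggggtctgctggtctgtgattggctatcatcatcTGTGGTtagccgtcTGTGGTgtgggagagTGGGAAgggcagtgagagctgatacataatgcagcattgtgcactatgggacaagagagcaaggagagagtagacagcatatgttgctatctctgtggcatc

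The window held 1 E-box, 2 Runx, 1 Ets and 1 Ikaros match and no Foxo match, and no 2 of the matches overlapped. Of all 32851 RefSeq promoter windows of the same length, 20.2% held the E-box, 16.8% the Runx letters, 23.8% the Ets letters, 25.6% the Ikaros letters and 3.65% the Foxo letters. Of the 10 genes, 9 matched the promoter table, with 10 windows. Among these 10 windows, 1 held the E-box, 1 the Runx, 3 the Ets, 2 the Ikaros and none the Foxo letters. A match is a description of the sequence and does not show that a factor binds there.

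*Dntt* had no MACS2 peak at its promoter in any LSK library. Its peaks lay before the gene and in its introns, and 3 regions were found in both WT libraries. The first, centred at -12910 bp from the start site (chr19:41016039-41016691, over the peaks of both WT libraries), scored 31 and 42, at percentiles 43.0 and 43.5 of the libraries. The second, centred at -6792 bp (chr19:41022229-41022738), scored 38 and 63, at percentiles 56.6 and 63.5. The third, in intron 1 at 2008 bp (chr19:41031110-41031456), scored 17 and 46, at percentiles 8.47 and 48.2. Further peaks in intron 3 (chr19:41039127-41039485, score 70) and intron 9 (chr19:41053530-41053784, score 44) were found in WT replicate 2 alone. The percentiles of the 8 WT peaks ran from 8.47 to 68.3, and 1 of them was among the 13208 best-scoring peaks of its library. In *Dido1*∆E16, MACS2 peaks at *Dntt* numbered 0 in both libraries. HOMER, the other program, gave 2 and 6 peaks in WT and 0 and 3 in *Dido1*∆E16, with 1 of those in *Dido1*∆E16 replicate 2 over the region at -6792 bp, so that the genotypes overlapped. By HOMER peaks *Xrcc4* was the 1 gene of the 10 with fewer peaks in both *Dido1*∆E16 libraries, against 19.5% of all genes. Of 2497 genes with at least as many MACS2 peaks as *Dntt* in each WT library, 157 (6.29%) had none in both *Dido1*∆E16 libraries. That set was fixed by the WT counts of *Dntt* itself and was not matched for peak score, so the share does not measure how rare the pattern is.

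**Figure D5:**
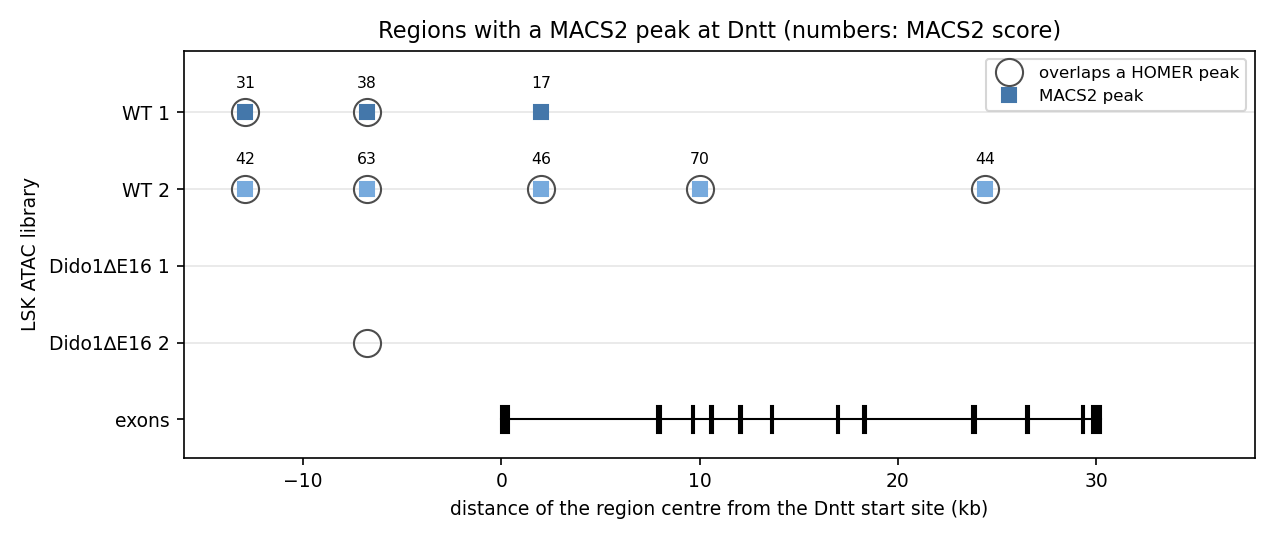
Regions with a MACS2 peak at *Dntt* in the 4 LSK libraries (rows), by the distance of the region's centre from the start site in kb, with the MACS2 score above each square and the exons drawn below. Open circles mark those of the 5 regions that a HOMER peak overlaps, and peaks of HOMER elsewhere are not drawn. The squares are in WT libraries only, and 1 circle is in *Dido1*∆E16 replicate 2.

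The 300 bases around the centre of the part that the peaks of both WT libraries share are shown for each of the 3 regions, 5′ to 3′ on the plus strand of GRCm38.p6, since no other region at the 10 genes was called in both WT and neither *Dido1*∆E16 library. They are, in the order printed, chr19:41016203-41016502, chr19:41022217-41022516 and chr19:41031107-41031406, and capitals mark matches to the same 5 sets of letters.
Dntt far upstream: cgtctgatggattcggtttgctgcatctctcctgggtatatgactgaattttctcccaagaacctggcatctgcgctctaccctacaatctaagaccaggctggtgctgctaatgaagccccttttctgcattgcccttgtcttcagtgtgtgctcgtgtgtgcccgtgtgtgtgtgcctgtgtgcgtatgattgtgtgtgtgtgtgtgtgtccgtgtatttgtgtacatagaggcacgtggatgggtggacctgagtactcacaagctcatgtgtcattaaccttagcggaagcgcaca
Dntt near upstream: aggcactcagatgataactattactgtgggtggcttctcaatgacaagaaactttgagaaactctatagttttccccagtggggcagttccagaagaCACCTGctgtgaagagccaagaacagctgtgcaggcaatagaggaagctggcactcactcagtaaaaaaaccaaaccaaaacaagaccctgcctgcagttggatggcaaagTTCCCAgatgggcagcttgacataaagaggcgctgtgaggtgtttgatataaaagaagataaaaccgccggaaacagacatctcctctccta
Dntt intron 1: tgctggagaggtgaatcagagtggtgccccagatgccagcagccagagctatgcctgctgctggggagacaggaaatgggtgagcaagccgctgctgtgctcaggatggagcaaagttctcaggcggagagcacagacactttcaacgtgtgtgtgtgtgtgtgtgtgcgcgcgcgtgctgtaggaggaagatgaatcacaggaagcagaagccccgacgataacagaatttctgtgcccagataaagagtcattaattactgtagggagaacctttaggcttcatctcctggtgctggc

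The region at -6792 bp held 1 E-box match and 1 Ikaros match, and the other two held no match. Windows of the same length at the centre of all 26327 regions that the WT libraries share held the E-box letters in 18.9%, the Runx letters in 25.7%, the Ets letters in 34.2%, the Ikaros letters in 21.6% and the Foxo letters in 3.14%.

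The RNA and the accessible regions come from different cells, so that their values were set side by side and not tested against each other. *Dntt* had fewer MACS2 peaks in the *Dido1*∆E16 LSK libraries, while its HOMER peaks overlapped between genotypes, and its higher values in the *Dido1*∆E16 pre-B libraries were not called (limma adjusted p = 0.409). *Rag1* and *Rag2* showed neither a called difference in pre-B cells nor a region in both WT libraries that was missing from both *Dido1*∆E16 libraries. For the *Lig4*, *Xrcc4*, *Xrcc5* and *Dclre1c* promoters, peaks were present in every LSK library and no difference was called in pre-B cells.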

How the data were processed

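RNA-seq was made from sorted pre-B cells and Omni-ATAC-seq from sorted LSK cells, with 2 labelled libraries per genotype each. The authors aligned reads to GRCm38/mm10 with BWA 0.7.15 or Bowtie2, removed duplicates with Picard, and deposited StringTie estimates per UCSC transcript as TPM, FPKM and exon coverage, and peaks as a score per region from MACS2 and HOMER, annotated with ChIPseeker. No read counts per gene were used here, and the depth of a gene is given only as exon coverage. The deposited lists of differential peaks and the edgeR tables hold the authors' own fold changes and p-values, which were not used; from them came only gene symbols and tag totals.

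TPM were summed per gene. The deposited files paired 30124 of 63753 transcripts with a symbol, which held from 75.0% to 76.7% of TPM. After the data were seen, transcripts without a symbol were given the GENCODE M21 gene on the same strand that held at least 50% of their exonic bases (26256 of 33629), since most of *Rag2* was otherwise left out. Where both sources name a transcript, 97.6% of names matched. Sums by deposited symbols alone were kept as an alternative. Genes with a mean of at least 1 TPM were fitted as log2(TPM + 1) in limma 3.58.1 (R 4.3.3) with a trend over the 4 libraries and Benjamini-Hochberg adjustment over 11855 genes. The threshold was an adjusted p under 0.05 together with a log2 fold change past 0.6 in either direction. Fold changes on this scale understate those of low genes. Each RNA library came from a pool of mice, and p-values measure the spread between such libraries. On simulated data of 11855 genes for this comparison, limma called 40 of 100 genes changed by 2 log2 units and 78 of 100 changed by 4.

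Peaks were counted per gene by the assigned symbol, scores were ranked within a library as percentiles, and counts were tested between genotypes by an exact permutation test (two-sided). Regions were merged with bedtools 2.31.1 where they overlapped. Sequences were read from the GRCm38.p6 genome and RefSeq promoters, which span 250 bases before to 50 after a start.

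The 10 genes are all named. Of each pathway list the text names up to 3 genes with the largest differences, and of each marker list the most abundant gene and those at 0. Some of these are not reported here. Other genes, such as *Cd79a*, *H2afx*, *Sdc1*, *Nkg7*, *Cd3d*, *Cd247* and the pro-B genes beside *Vpreb1*, were chosen after their values were seen. The 10 genes and all lists were chosen with earlier results of these data known. Alternatives were another pseudocount, no filter, median centring, FPKM, no immunoglobulin transcripts, no trend, a replicate block, the most abundant transcript of each of the 10 genes, leaving out each library, HOMER peaks, the 13208 best-scoring peaks, and peaks by overlap with the gene.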

Additional observations from a re-analysis of the deposited data

How the results depend on the processing

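None of the 10 genes was called under any alternative. Over all genes, 3 were called higher and 3 lower, against 0 and 0 with a pseudocount of 0.1 and with no filter on low values, 74 and 13 without the trend, 6 and 3 by deposited symbols alone (chosen after seeing the data), and from 0 to 0 when each library was left out, where the lone library of a genotype was assumed to vary like the others. With the replicate number as a block the counts were 0 and 0, and no call of the 10 genes changed. Over all genes, the deviations of same-numbered libraries from their genotype mean had r = 0.0485. This value does not decide whether same-numbered libraries were prepared together, which was not tested. In both genotypes replicate 2 had less coverage and higher neutrophil and erythroid sums than replicate 1, while the cycling sums moved in opposite directions. Of 130 alternative fold changes of the 10 genes 15 reversed, at 6 genes, and none reversed for *Dntt*, *Prkdc*, *Xrcc4* and *Nhej1*. Part of the 130 could not reverse, since no filter, no trend and the replicate block leave a fold change as it is. For *Dntt*, *Prkdc*, *Xrcc4* and *Nhej1*, deposited symbols and the most abundant transcript also repeat the main value. All their TPM lie in a transcript with a symbol. *Rag1* turned to -0.07 with median-centred libraries and -0.01 by FPKM, and *Dclre1c* to -0.07, -0.01 and, by deposited symbols alone, -0.23. By the most abundant transcript of the gene, *Dclre1c* moved from 0.02 to 2.09. *Nhej1* moved from -2.50 to -4.14 with a pseudocount of 0.1 and to -1.75 by FPKM. Leaving out each library gave from -0.12 to 0.14 for *Rag1*, -0.65 to 0.12 for *Rag2*, -0.52 to 0.17 for *Xrcc5*, -0.03 to 0.29 for *Xrcc6*, -0.52 to 0.56 for *Dclre1c* and -0.38 to 0.37 for *Lig4*. In LSK cells, the mean number of peaks at the 10 genes differed by -8.5 (*Dido1*∆E16 minus WT), from -13.0 to -4.0 with each library left out, and by 0.5 for the best-scoring peaks. At *Dntt* it differed by -4.0, from -5.0 to -3.0 with each library left out, by -2.5 for HOMER peaks, -0.5 for the best-scoring peaks and -2.0 for peaks overlapping the gene. The count of genes with fewer peaks in every *Dido1*∆E16 library was 1, from 1 to 7 with each library left out (7 without WT replicate 1), and 0 for the best-scoring peaks. The mean promoter rank differed by -7.32, by 2.4 for the best-scoring peaks and by -10.5 for peaks overlapping the gene, by which 7 genes in place of 4 had a peak annotated as a promoter in every library (at *Rag2* the promoter of *B230118H07Rik*). The cause of these shifts was not tested. With 2 libraries per group, no exact test could pass 0.05.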

Other observations

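The summed level of all *Dido1* transcripts was 44.3 and 46.0 TPM in WT and 81.6 and 87.2 TPM in *Dido1*∆E16, a log2 fold change of 0.89 (SE 0.13, limma adjusted p = 0.191), with no overlap between genotypes. Exon coverage was taken from the transcript uc008ojq.2 alone, so it measures a part of what the TPM sum holds. The coverage of exons 2 to 15 of this transcript, not scaled for depth, lay the other way, at 31.5 and 24.6 in WT and 21.8 and 20.4 in *Dido1*∆E16. With coverage scaled to each library's TPM, its exon 12 was at 76.1 and 77.9 in WT and 44.7 and 63.0 in *Dido1*∆E16, while its exons 2 and 3 overlapped between genotypes. No direction is read from the TPM sum. The 6 genes called among all genes, named after their values were seen, were *Ndufa5*, *Serpina3g* and *Tex45* (higher in *Dido1*∆E16) and *Lamtor1*, *Mrpl42* and *Smim11* (lower), and 4 of them were listed at 0 in both libraries of 1 genotype.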
